A study of Stylophora pistillata with 18 samples.

Results

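Cglr2 (Spis_XP_022802921_1) is a gene model of the stony coral Stylophora pistillata with the symbol of a cGAS-like receptor gene. It is 1 of 29419 models in the deposited count table and was chosen for that symbol, not for its values. By protein accession 13548 of the models could be paired with entries of a RefSeq gene table, which describes the assembly jaStyPist1.2, and Cglr2 was the 1 matched model whose symbol is not a LOC number. The table holds a later version of the Cglr2 protein accession than the deposited model has, so the match rests on the accession without its version.

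RNA was sequenced from wild-type specimens of 2 adult colonies, to see how cyclic dinucleotides of the kind made by cGAS-like receptors alter the coral's transcripts. Specimens were kept for 18 h in plain seawater (control), in seawater holding 250 µM 3'3'-cUA, or in seawater holding 250 µM 2'3'-cGAMP. There were 6 libraries for each treatment, 3 from each colony, and control 1A denotes specimen A of colony 1 in plain seawater. The tissue was the adult colony, so every cell type of the coral may contribute, and fewer cells of a type cannot be told apart from less RNA per cell.

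cGAS-like receptors are nucleotidyltransferases related to mammalian cGAS, which senses cytosolic DNA and makes 2'3'-cGAMP. A family member in Drosophila senses double-stranded RNA, and the cyclic dinucleotides that the family makes act as second messengers. In mammals and in Drosophila these messengers bind STING, a receptor that switches on innate immune transcription. The sources used here do not give the trigger or the product of the coral Cglr2 protein, nor whether it makes either of the added compounds.

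In the deposited annotation Cglr2 lay on the minus strand of scaffold NW_019218231.1, from 193575 to 195716, as a single coding segment of 2142 bases, which is 714 codons with the stop. It came from the predictor Gnomon, and the sources used here do not give the genome build of these coordinates. Models with a single coding segment made up 17.8% of the annotation (5249 of 29419). With 1 segment the span and the coding sequence of Cglr2 are the same bases, so a count over either covers the same stretch.

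Total counts ran from 22175801 to 41800393 per library, and 21375 models passed the filter on low counts and were tested. Levels are given in CPM, the count of a model scaled by its library's total, with TMM factors that correct for composition. Control 1A and cUA 2A had the lowest factors, 0.714 and 0.619, against 0.862 to 1.23 elsewhere. A further pattern, found after the data were seen, set libraries against their colony labels. Of the tested models with a mean of at least 1 CPM, 58 were split into high and low libraries, at least 3 of each, by a gap of at least 3 on the log2 scale, and all 58 parted the 18 libraries in the same way, 9 and 9. With a gap of at least 2 it was 117 of 153 models, and with a gap of at least 4 it was 19 of 19. One side held control 1A, 2A, 2B and 2C, cUA 1A, 1B and 2C, and cGAMP 2A and 2B, and the other side the remaining 9. Each side held 6 libraries of 1 colony label and 3 of the other, so that 6 libraries (control 1A, cUA 1A, 1B, 2A and 2B, and cGAMP 2C) stood with the libraries of the other label. What parts the sides was not tested. The results for Cglr2 are given with and without these 6 libraries and with the split in place of colony.

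Cglr2 was detected in every library, with 31 to 262 counts in each and 2632 in all. Its mean level was 4.96 CPM, or 2.32 CPM per kb of coding sequence. Per length, 32.9% of the tested models lay lower, and the median model stood at 6.84 CPM per kb. Among the 2924 tested models with a single coding segment, Cglr2 lay near the middle: 48.7% were lower, and their median was 2.48 CPM per kb. The spread of Cglr2 over the libraries was also near the middle for its level. Its SD was 0.70 on the log2 CPM scale, against a median of 0.69 for the 500 models nearest to it in mean log2 CPM, of which 52.0% had a smaller SD.

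In seawater the Cglr2 level was 1.24 CPM in control 1A, 5.88 in 1B and 5.10 in 1C, and 2.43, 3.33 and 5.22 CPM in control 2A, 2B and 2C. Control 1A was the lowest of all 18 libraries, with 31 counts and a 95% counting interval of 0.84 to 1.76 CPM, while control 1B of the same colony was the highest of the treatment. With cUA the level was 4.04, 4.75 and 7.23 CPM in 1A, 1B and 1C, and 2.56, 7.51 and 4.2 CPM in 2A, 2B and 2C. The cUA libraries of the colonies overlapped, and those of colony 2 held both the lowest and the highest. With cGAMP the level was 7.53, 7.69 and 8.58 CPM in colony 1, and 3.72, 4.67 and 3.62 CPM in colony 2. Here the colonies did not overlap, and the 3 libraries of colony 1 held the highest levels of the study. Such counting intervals treat reads as independent and leave out the variation between specimens. Reads without molecular identifiers are not independent molecules, so the intervals may be too narrow even for counting error.

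**Figure D1:**
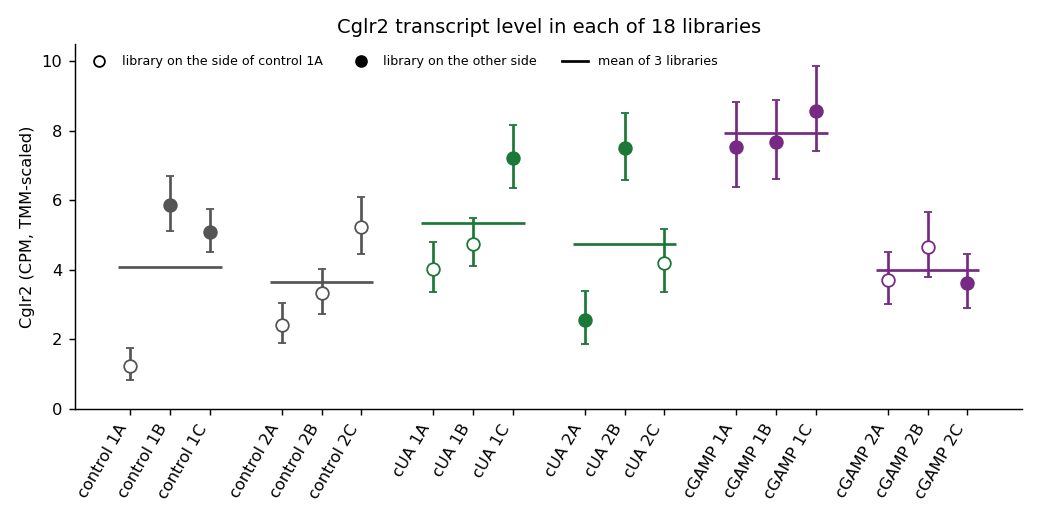
Cglr2 level in CPM (vertical axis, TMM-scaled) in each of the 18 libraries, with exact 95% counting intervals as bars and the mean of each treatment and colony as a line; open and filled points mark the sides of the 9-and-9 split. Control 1A is lowest at 1.24 CPM, and the 3 cGAMP libraries of colony 1 are highest, from 7.53 to 8.58 CPM.

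Over both colonies Cglr2 had a lowest, median and highest level of 1.24, 4.22 and 5.88 CPM in control, 2.56, 4.48 and 7.51 CPM with cUA, and 3.62, 6.10 and 8.58 CPM with cGAMP. The means were 3.87 ± 1.83, 5.05 ± 1.94 and 5.97 ± 2.21 CPM (SD, n = 6 each). The treatments overlapped, and each mean differed from the next by less than 1 SD. Split by colony, the order of the means from the highest was cGAMP in colony 1 (7.93 ± 0.565 CPM), cUA in colony 1 (5.34 ± 1.67), cUA in colony 2 (4.76 ± 2.52), control in colony 1 (4.07 ± 2.49), cGAMP in colony 2 (4.0 ± 0.583) and control in colony 2 (3.66 ± 1.43; SD, n = 3 each). Only the first and second of this order did not overlap in their libraries; every later pair of neighbours overlapped.

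Set against counting noise alone, the 3 cGAMP libraries gave a chi-square of 1.81 in colony 1 and 3.92 in colony 2, against a 95% point of 5.99 for 2 degrees of freedom. In the 4 other groups the chi-square lay between 34.8, in control of colony 2, and 79.3, in control of colony 1. Separate specimens can differ beyond counting noise in any gene. These values therefore describe only the spread of Cglr2 between specimens relative to counting noise. Whether the spread differs between treatments was not tested.

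The comparison of cUA with seawater asked whether Cglr2 transcripts change with a cyclic dinucleotide that carries uracil and adenine. The Cglr2 log2 fold change was 0.38 ± 0.35 (SE; 95% interval -0.35 to 1.12), and it did not pass edgeR's quasi-likelihood test (adjusted p = 0.578, Benjamini-Hochberg over all tested models). Over all models 10.2% were called at an adjusted p below 0.05, 5.91% higher and 4.29% lower. The size of the Cglr2 difference was that of a middling model, with 52.9% of models showing a smaller absolute log2 fold change. In the exact two-sided permutation test over the libraries, Cglr2 differed by 0.46 in mean log2 CPM (p = 0.299, adjusted p = 0.448 over the 3 pairs of treatments).

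With cGAMP against seawater the log2 fold change of Cglr2 was 0.56 ± 0.35 (SE; 95% interval -0.18 to 1.31; edgeR adjusted p = 0.280), so this difference did not pass the test either. In this comparison 21.5% of all models were called, 9.22% higher and 12.3% lower. Of all models 56.4% had a smaller absolute log2 fold change than Cglr2. The exact permutation test gave a difference of 0.70 in mean log2 CPM (p = 0.119, adjusted p = 0.357). With treatment labels exchanged only within colonies the exact permutation p was 0.06 (adjusted p = 0.18). The interval for Cglr2 reaches from below 0 to over 1 on the log2 scale. With counts scaled by library totals alone, the Cglr2 values were 0.26 for cUA and 0.29 for cGAMP, where the median of all models lay at -0.10 and -0.24, against -0.02 and -0.07 with TMM. That scaling called 1366 models higher and 2889 lower with cGAMP, where TMM called 1970 and 2634.

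The compounds were compared at the same dose and time. They differ in 1 of their bases, which is uracil in cUA and guanine in cGAMP, and in the linkages that join their nucleotides. The Cglr2 level with cUA minus that with cGAMP was -0.18 ± 0.35 on the log2 scale (SE; 95% interval -0.92 to 0.56; edgeR adjusted p = 0.959), and the exact permutation test gave -0.24 (p = 0.487, adjusted p = 0.487). The interval reaches to both sides of 0, and the missed threshold does not show that the compounds act alike on Cglr2. edgeR called 0 of the 21375 models between the compounds (0%), where 1830 had an unadjusted p below 0.05, DESeq2 called 103, and limma-voom called 0, or 2856 with sample weights. Both comparisons with seawater share the 6 control libraries, control 1A among them. Without control 1A the Cglr2 log2 fold change was 0.20 for cUA (adjusted p = 0.692) and 0.37 for cGAMP (adjusted p = 0.359).

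Colony 2 stood below colony 1 in Cglr2, at 4.14 ± 1.55 against 5.78 ± 2.29 CPM (SD, n = 9 each), and the libraries overlapped, from 2.43 to 7.51 and from 1.24 to 8.58 CPM. The log2 difference of -0.43 ± 0.29 (SE; 95% interval -1.04 to 0.17) did not pass edgeR's test (adjusted p = 0.632). It rests on the colony labels, which 6 libraries did not follow in the split above. Without those 6 it was -0.75 ± 0.206 (SE, 6 libraries of each colony), given with no test since the libraries were picked by their values. Without control 1A and cUA 2A it was -0.51 (unadjusted 95% interval -0.97 to -0.05; edgeR adjusted p = 0.184). Both libraries are among those 6, so this interval and p are no test of the colony difference either. Over all libraries no model passed the test: 0 of 21375 (0%), with 1773 at an unadjusted p below 0.05, 3 called by DESeq2, 0 by limma-voom and 4556 by limma-voom with sample weights. An exact permutation of colony labels within treatments, added after the data were seen, gave -0.39 in mean log2 CPM (p = 0.225). The weighted limma-voom fit, which gives variable libraries less weight, called the colony difference of Cglr2, at -0.67 (adjusted p = 0.0277), in a fit that called 21.3% of all models for colony.

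Within colony 1 the Cglr2 levels with cGAMP lay above those of all 3 control libraries and of all 3 cUA libraries. In mean log2 CPM, cGAMP minus control was 1.22 and cUA minus cGAMP was -0.61 (exact permutation p = 0.1 for each, the smallest that 3 against 3 libraries can give). Minus control, cUA was 0.62 in colony 1 (exact p = 0.7) and 0.31 in colony 2 (exact p = 0.6). Within colony 2 cGAMP differed from control by 0.19 in mean log2 CPM (exact p = 0.7), and its libraries lay inside the range of the control libraries. Between the colonies Cglr2 differed by -0.98 in mean log2 CPM with cGAMP (exact p = 0.1), by -0.26 with cUA (p = 0.8) and by 0.05 in control (p = 0.9; exact permutation). Whether the effect on Cglr2 depends on the colony was tested by the interaction, which was -0.83 ± 0.70 for cGAMP (SE; 95% interval -2.32 to 0.66; edgeR adjusted p = 0.893) and -0.003 ± 0.71 for cUA (95% interval -1.51 to 1.503; adjusted p = 0.999). A difference between the colonies in the cGAMP effect on Cglr2 was therefore not shown, and its interval is wide.

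Set against the 9-and-9 split, the Cglr2 levels ran from 1.24 to 5.22 CPM on the side with control 1A and from 2.56 to 8.58 CPM on the other side. The ranges overlapped, with medians of 4.04 and 7.23 CPM, given as a description with no test. The sides held unequal shares of the treatments, 4 control, 3 cUA and 2 cGAMP libraries on the former and 2, 3 and 4 on the latter. With the split in place of colony in the edgeR model, the Cglr2 log2 fold change was 0.32 with cUA (adjusted p = 0.583) and 0.43 with cGAMP (adjusted p = 0.380). Without the 6 libraries that stood with the other colony label, 5 control, 2 cUA and 5 cGAMP libraries were left. The values were then 0.31 (adjusted p = 0.563) and 0.39 (adjusted p = 0.194), and cUA minus cGAMP was -0.09 (adjusted p = 0.957). Neither setting called Cglr2 or turned its direction. The split and the 6 libraries were found from these same counts, so neither fit is a separate test. The fit with 3 surrogate variables, which are patterns of variation estimated from the counts themselves, gave larger values with smaller errors. It called Cglr2 for cUA at 0.54 ± 0.17 (SE, adjusted p = 0.0228) and for cGAMP at 0.78 ± 0.17 (adjusted p = 0.00156). That fit called 30.1% of all models for cUA and 45.4% for cGAMP, and the cause of its larger counts was not tested.

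**Figure D2:**
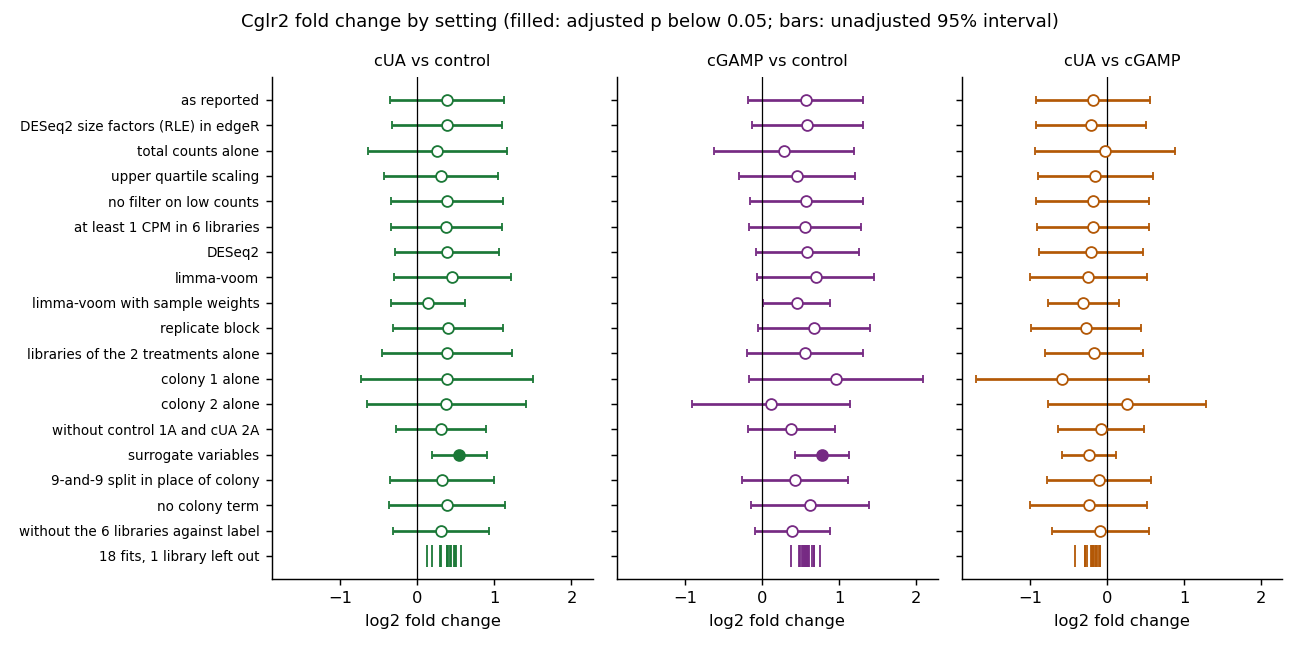
Log2 fold change of Cglr2 (horizontal axis) with its unadjusted 95% interval under each setting, 1 line per setting, for the 3 pairs of treatments; filled points have an adjusted p below 0.05 and the bottom line shows the 18 fits that each left out 1 library. All values against control lie above 0, from 0.13 to 0.57 for cUA and 0.37 to 0.75 for cGAMP when 1 library is left out, and only the fit with surrogate variables is filled, at 0.54 and 0.78.

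The genomic context of Cglr2 was a scaffold with 26 models, 25 of them tested. The nearest model, LOC111340380 (Spis_XP_022802959_1, 181191 to 192723, 4 coding segments), lay 851 bases downstream of Cglr2 on the same strand. The nearest on the upstream side was LOC111340377 (Spis_XP_022802956_1, 202010 to 210342, 15 coding segments), also on the same strand. Its downstream end lay 6293 bases from Cglr2. Models further out are taken here in order of their start positions, 5 on each side. By that order the fifth downstream, Spis_XP_022802927_1, lies within the span of LOC111340356 (Spis_XP_022802924_1, 125995 to 155089), whose gap to Cglr2 is smaller, 38485 against 45702 bases. None of the 10 overlapped Cglr2. In the annotation of jaStyPist1.2 the symbols of 20 models of this scaffold lay on 1 chromosome, with all 19 adjacent pairs in the same order read from the other end. There too LOC111340377 and LOC111340380 were the protein-coding genes next to Cglr2. The reference table gives none of these neighbours a description, so no role is given to them here.

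The LOC111340380 level varied with that of Cglr2 across the libraries. It was 1.16, 6.71 and 6.29 CPM in control 1A, 1B and 1C and 3.04, 5.08 and 5.73 CPM in control 2A, 2B and 2C, and the lowest library was control 1A, as for Cglr2. With cUA it was 4.04, 5.93 and 7.57 CPM in colony 1 and 3.70, 7.10 and 3.39 CPM in colony 2. With cGAMP it was 4.91, 9.25 and 7.42 CPM in colony 1 and 3.57, 4.63 and 4.66 CPM in colony 2, so that, as for Cglr2, the colonies did not overlap, and the first colony spread more widely. Per coding length it stood at 3.39 CPM per kb, against 2.32 for Cglr2. The Pearson correlation of log2 CPM between the neighbours was 0.903 over 18 libraries, which placed LOC111340380 at 38 of 21374 models ranked by likeness to Cglr2. Without control 1A and cUA 2A it was 0.817 (n = 16) and the rank 65. The correlation is a description, since both models were counted in the same libraries, and whether reads were shared between these adjacent models could not be checked.

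LOC111340380, like Cglr2, did not pass the test with either compound. Its log2 fold change was 0.16 ± 0.35 with cUA (SE, edgeR adjusted p = 0.845) and 0.25 ± 0.36 with cGAMP (adjusted p = 0.662). The sign of both values turned under some settings. The upstream neighbour LOC111340377 varied less than Cglr2 between specimens, with 53.03 ± 6.17 CPM in control, 51.2 ± 8.07 with cUA and 62.7 ± 7.19 with cGAMP (SD, n = 6 each). Its log2 fold change was -0.05 ± 0.13 with cUA (adjusted p = 0.876) and 0.24 ± 0.13 with cGAMP (adjusted p = 0.180), and its correlation with Cglr2 was 0.145 (n = 18).

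Among these 5 models on each side of Cglr2, edgeR called 0 of 10 with cUA, where 10.2% of all models were called, and 3 of 10 with cGAMP, where 21.5% were. With cUA 2 of the 10 had an unadjusted p below 0.05, against 4983 of the 21375 tested models. For cUA DESeq2 and limma-voom called 0 of the 10, or 3 with sample weights. Over all models they called 15.3% and 10.1%, or 28.9% with sample weights. Between the compounds and between the colonies edgeR called 0 of the 10, as of all models. At an unadjusted p below 0.05 were 1 and 2 of the 10, against 1830 and 1773 of all models. With cGAMP Spis_XP_022802936_1 rose by 1.66 ± 0.44 on the log2 scale (SE, edgeR adjusted p = 0.0115), from 37.9 ± 22.2 to 120.5 ± 50.04 CPM (SD, n = 6 each). LOC111340381 (Spis_XP_022802960_1) rose by 1.12 ± 0.36 (adjusted p = 0.0332), and Spis_XP_022802934_1 changed by -0.91 ± 0.32 (adjusted p = 0.0489). The 5 further neighbours passed with neither compound, at log2 fold changes of -1.36 (LOC111340362) to 0.48 (Spis_XP_022802927_1) with cUA and -1.66 to 0.21 for the same models with cGAMP. Over the alternative fits the call of LOC111340381 was lost in 12 and kept in 23. That of Spis_XP_022802934_1 was lost in 18 and kept in 17, and that of Spis_XP_022802936_1 was lost in 1 and kept in 34. Without the 6 libraries that stood with the other colony label, 7 of the 10 were called with cGAMP, where 34.9% of all models were. With cUA 1 was called, where 7.66% of all models were, and Cglr2 was called in neither comparison. Those 6 libraries were picked by values in the same data, so these calls are a description alone. The median log2 fold change of the 10 was -0.16 with cUA and -0.10 with cGAMP, against -0.02 and -0.07 over all tested models, while that of Cglr2 was above 0 in both. With LOC111340356, the fifth by gap, in place of Spis_XP_022802927_1, the calls were also 0 and 3 of 10, and the medians -0.16 and -0.20. LOC111340356 itself had log2 fold changes of 0.12 ± 0.25 with cUA (SE, edgeR adjusted p = 0.832) and 0.003 ± 0.25 with cGAMP (adjusted p = 0.994). Its correlation with Cglr2 was -0.539 (n = 18), and it was not computed without control 1A and cUA 2A.

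**Figure D3:**
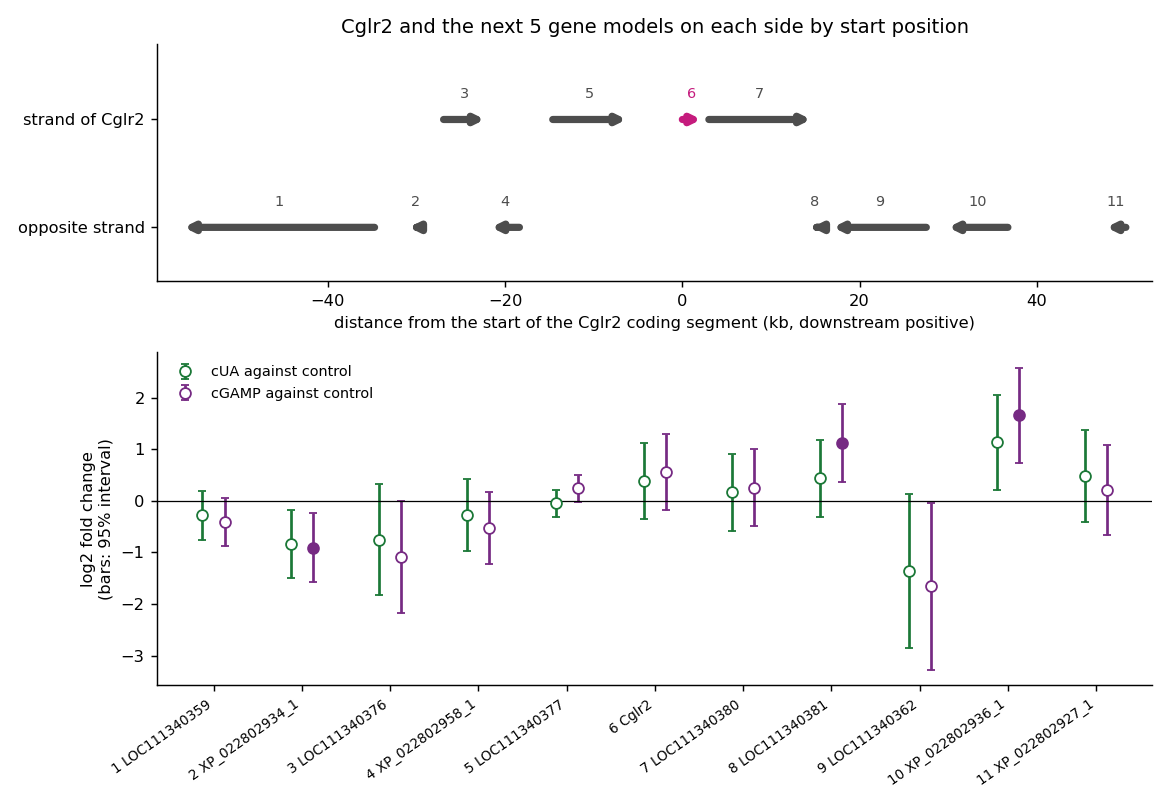
Above, Cglr2 and the next 5 models on each side in order of start, by distance from the start of the Cglr2 coding segment in kb, with arrows in the direction of transcription; below, the log2 fold change of each with its 95% interval for cUA and cGAMP against control, filled where the adjusted p is below 0.05. Cglr2 and its neighbour LOC111340380 lie 851 bases apart on the same strand and neither is filled, and 3 of the other models are filled for cGAMP.

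Likeness to Cglr2 was measured as the Pearson correlation of log2 CPM over the 18 libraries, and it is given with no p, since the libraries share treatments, colonies and composition. Over 21374 other models the median was 0.027, the 5th percentile -0.663 and the 95th 0.71. A value over 0.9 was reached by 43 models and a value over 0.8 by 365, and 200 lay under -0.8. The most alike were LOC111346361 (Spis_XP_022809380_1) at 0.963, LOC111340666 (Spis_XP_022803282_1) and Spis_XP_022803155_1, both at 0.955, LOC111324926 (Spis_XP_022784324_1) at 0.952 and Spis_XP_022792003_1 at 0.938. All lay on scaffolds other than that of Cglr2, and LOC111346361, like Cglr2, had a single coding segment. The most opposite were Spis_XP_022794402_1 at -0.934, Spis_XP_022786702_1 at -0.919 and LOC111329995 (Spis_XP_022790511_1) at -0.918.

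In seawater LOC111346361 stood at 3.39, 14.4 and 13.9 CPM in control 1A, 1B and 1C, and at 6.76, 10.3 and 11.7 CPM in control 2A, 2B and 2C. Control 1A was lowest and control 1B highest of these. With cGAMP LOC111346361 stood at 15.4, 17.5 and 20.2 CPM in colony 1 and at 8.98, 10.2 and 9.37 CPM in colony 2, with no overlap between the colonies. The opposite model Spis_XP_022794402_1 was highest in control 1A, at 96.3 CPM, and lowest in cGAMP 1A, at 44.1 CPM. Both models were picked by their correlation with Cglr2 over these same libraries, so these patterns follow from the choice. edgeR called 0 of the 8 models picked by likeness with cUA and 0 with cGAMP, where 10.2% and 21.5% of all models were called. Of the 8, 0 and 3 had an unadjusted p below 0.05, against 4983 and 7238 of the 21375 tested models. Cglr2 was itself not called, and the 8 were picked from these libraries by their correlation with it. Their missing calls are therefore no separate evidence. Other tools were not run on them as a list. Without control 1A and cUA 2A the 5 most alike still had correlations of 0.881 to 0.968 with Cglr2 and the 3 most opposite -0.891 to -0.827 (n = 16). By rank correlation 3 of the 8 were chosen again, and by the correlation within treatment and colony groups 1 of the 8, so the list depends on the measure.

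**Figure D4:**
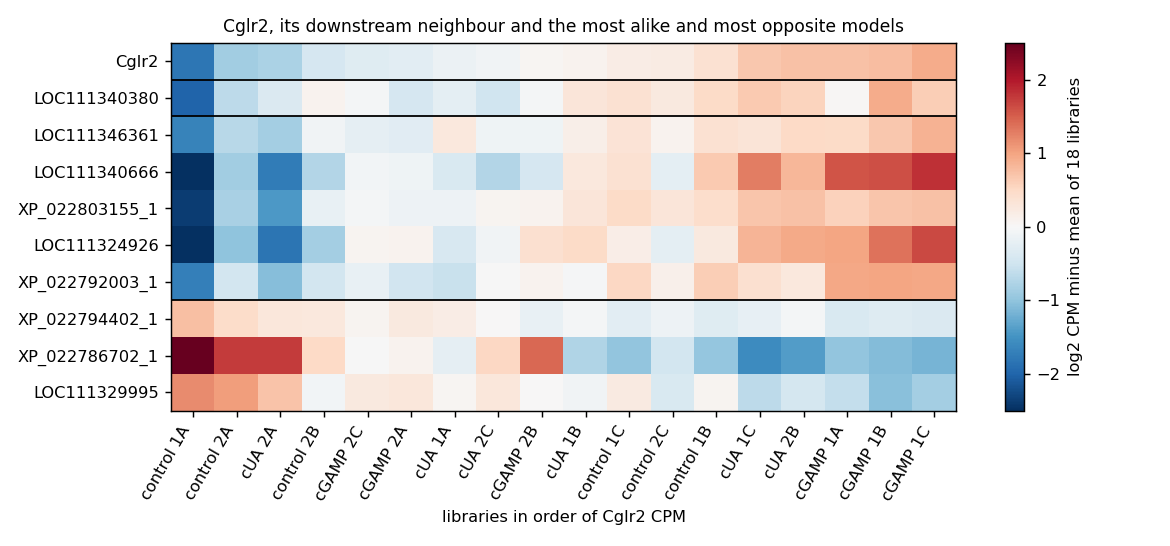
Log2 CPM minus the mean of 18 libraries (colour) for Cglr2, its downstream neighbour LOC111340380, the 5 most alike and the 3 most opposite models, with libraries in order of the Cglr2 level. The colours of the alike models run from low in control 1A, where Cglr2 was 1.24 CPM, to high in cGAMP 1C, where it was 8.58 CPM, and those of the opposite models the other way. The alike and opposite models were picked for this by their correlation with Cglr2.

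**Figure D5:**
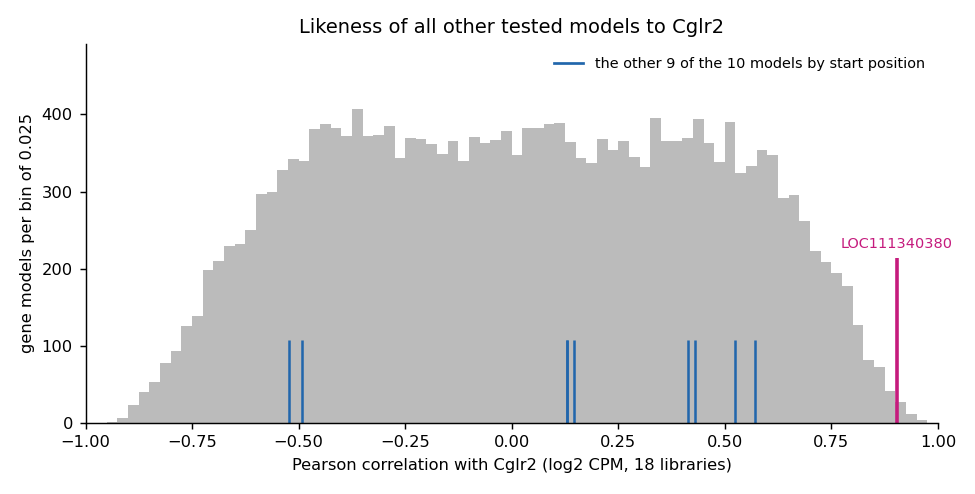
Number of tested models (vertical axis, bins of 0.025) by Pearson correlation of log2 CPM with Cglr2 over 18 libraries, with the 10 neighbours in order of start marked. LOC111340380 lies at 0.903 in the upper tail, and the other 9 marked models lie between -0.522 and 0.57.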

How the data were processed

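The authors deposited whole-number read counts for each gene model without normalization. Per the submitters' processing notes STAR, featureCounts and DESeq2 were used; the sources used here give neither their versions and roles, nor the build, the counted feature or the strand setting. Libraries were oligo(dT)-enriched and directional, per the labels' protocols. Positions in the deposited annotation, a file of other values, were used as given. Without the settings and protein sequences, reads shared with near-identical, antisense or adjacent models could not be checked.

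Counts were tested with edgeR 4.0.16 in R 4.3.3 (TMM, filterByExpr on the 6 treatment-by-colony groups, robust quasi-likelihood fit of colony plus treatment over 18 libraries; the interaction in a second model). Adjusted p-values are Benjamini-Hochberg over 21375 models, called below 0.05. Log2 CPM used a prior count of 2. Differences in mean log2 CPM were tested by exact two-sided permutation. Alternatives used DESeq2 1.42.0, limma 3.58.1 and sva 3.50.0. Scripts were tested on simulated data. Each library counted as a replicate; p-values then measure only how these specimens vary, and the labels do not give their independence. No libraries within a group differed by sampling noise alone (chi-square over degrees of freedom at least 19.9).

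Cglr2, its neighbours, the lists and the tests were chosen with earlier results of these data known. The models named are Cglr2, the next 5 models on each side in order of start position, and the 5 highest and 3 lowest in Pearson correlation with it. Models named by sequence likeness or by product description could not be had, since no protein sequences or descriptions were used here.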

Additional observations from a re-analysis of the deposited data

Results flagged for a closer look

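Within treatments of 6 libraries, a library was singled out where its gap to the nearest other library exceeded 0.625 of the treatment's range (Dixon's 95% value). Of 57 groups checked, 9 met this. The 1 in 20 rate of Dixon's value holds for independent, normally distributed values. Here CPM of both colonies were pooled, the models share libraries and some were picked by likeness. The 9 can therefore not be set against that rate. The Cglr2 levels met it in none of the 3 treatments. Among its neighbours, Spis_XP_022802927_1 stood at 24.6 CPM in control 1A, where the next library had 12.5 CPM, and at 56.7 CPM in cUA 2A, where the next had 12.7 CPM; Cglr2 was lowest of its treatment in both libraries. LOC111340362 stood at 11 CPM in cGAMP 2B, next 3.12 CPM, and LOC111340377 at 66.4 CPM in cUA 2C, next 50.8 CPM. Spis_XP_022802958_1 stood at 3.91 CPM in cUA 1A, next 2.90 CPM, and LOC111340359 was lowest in cUA 2C, at 26.2 CPM, next 43.0 CPM. Spis_XP_022786702_1, whose pattern was opposite to that of Cglr2, stood at 108 CPM in control 1A (next 31.3 CPM), at 31.1 CPM in cUA 2A (next 13.3 CPM) and at 25.2 CPM in cGAMP 2B (next 9.88 CPM). What sets these libraries apart was not tested.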

How the results depend on the processing

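The Cglr2 log2 fold change against control stayed above 0 under every alternative run, uncalled except with surrogate variables (cUA 0.544, cGAMP 0.776). For cGAMP it was lowest in colony 2 alone, at 0.114 (unadjusted 95% interval -0.916 to 1.144), and highest in colony 1 alone, at 0.963. The alternatives reuse the same libraries, so their shared sign is no separate evidence. Leaving out 1 library gave 0.13 (without cUA 2B) to 0.573 (without control 2C) for cUA, 0.37 to 0.747 for cGAMP, -0.413 to -0.084 for cUA minus cGAMP and -0.597 to -0.358 for colony, none called. cUA minus cGAMP turned to 0.26 in colony 2 alone. The colony difference was called at -0.668 by limma-voom with sample weights and turned to 0.057 with surrogate variables. The interaction of colony and cUA, at -0.003, had no settled sign: -0.501 to 0.42 without 1 library, 0.004 with DESeq2's size factors, 0.007 with upper quartile scaling, 0.001 without a filter, 0.025 with at least 1 CPM in 6 libraries, 0.009 in DESeq2, 0.64 with sample weights, 0.719 without control 1A and cUA 2A, and 0.279 with surrogate variables. The causes were not tested.

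Counts of called models moved more. For cUA they were 3269 in DESeq2, 6168 with sample weights, 931 and 471 in colony 1 and 2 alone, 6439 with surrogate variables and 1369 (without control 2A) to 3392 (without control 1A) with 1 library left out. For cGAMP they were 10798 with sample weights, 2726 and 813 in the colonies alone, 7484 without control 1A and cUA 2A, 9702 with surrogate variables and 7747 without the 6 libraries. Between the compounds they were 103 in DESeq2, 2856 with sample weights, 2 in colony 1 alone, 729 without control 1A and cUA 2A, 730 with surrogate variables, 10 without the 6 libraries and 0 to 45 (without cUA 2A) with 1 library left out. For colony they were 3 in DESeq2, 4556 with sample weights, 99 without control 1A and cUA 2A and 0 to 272 (without control 1A). For the interaction of colony and cUA, 0 as tested, they were 227 in DESeq2, 376 with sample weights, 76 with surrogate variables and 0 to 92 (without cUA 2B) with 1 library left out, and for that of colony and cGAMP 4, 830 and 3 under the same 3 settings. Among the 10 neighbours of Cglr2, cUA calls were 3 with sample weights, 1 without control 1A and cUA 2A, 2 with surrogate variables, 1 without the 6 libraries and 0 to 1 with 1 library left out (1 without control 1A or 2A). Their cGAMP calls were 9, 7, 6 and 7 under the same settings, 0 in colony 2 alone, 1 with no colony term and 1 to 6 (6 without control 1A) with 1 library left out. Over all models those settings, in the same order, called 28.9%, 13.6%, 30.1% and 7.66% for cUA and 50.5%, 34.5%, 45.4% and 34.9% for cGAMP. For cGAMP, colony 2 alone called 4.0% of all models and the fit with no colony term 20.9%. Fits with 1 library left out called 3567 to 6219 models for cGAMP. Of the 8 models chosen by likeness 1 was chosen again within groups and 3 by Spearman's rho.

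Single neighbours changed sign for cUA or cGAMP as follows. Spis_XP_022802927_1 was at -0.26 and -0.18 in colony 1 alone and at -0.18 (without cUA 2A) to 0.9 for cUA with 1 library left out. LOC111340380 was at -0.038 with sample weights and -0.092 without the 6 libraries for cUA, at -0.018 with total counts, -0.122 in colony 2 alone and -0.005 without the 6 libraries for cGAMP, and at -0.047 (without control 1A) to 0.284 for cUA with 1 library left out. LOC111340377 was at 0.031 without control 1A and cUA 2A, 0.091 without the 6 libraries, and -0.123 to 0.018 (without cUA 2A) for cUA. LOC111340362 was at 0.171 in colony 2 alone for cGAMP.

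Whether specimen letters pair the libraries was not settled. Of 18 pairs with the same letter 6 had deviations correlated over 0.1 (range -0.447 to 0.381), and pairs with different letters were not computed for comparison. With the replicate block the Cglr2 values were 0.398 for cUA (adjusted p = 0.559), 0.671 for cGAMP (0.185), -0.273 for cUA minus cGAMP (0.915) and -0.423 for colony (0.622), and calls over all models were 1674, 4030, 0 and 0. The fits with the 9-and-9 split, without a colony term and without the 6 libraries, the neighbours by gap, and the colony permutations, were chosen after seeing the data. Sequence relatives of Cglr2 and pathway lists by description were not run here. Cglr2 had 31 to 262 counts per library.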
